A study of Homo sapiens with 9 samples.

Results

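The 55681 sites described here are all peaks of heterochromatin protein 1 gamma (HP1γ) in the deposited lists of T47D-MTVL breast cancer cells, 23836 after 30 min of progestin and 31845 at 0 min. They are part of 118560 peaks in all lists of the series. Peaks of both times that shared at least 1 bp were taken as the same site, and a peak was assigned to every gene whose annotated start and end enclosed part of it. The series holds 9 ChIP-seq samples with antibodies to 4 proteins, HP1γ, LSD1, BPTF and histone H2A, and its design text concerns ADP-ribose, nuclear ATP and chromatin remodelling in hormonal gene regulation. In the 30 min group, T47D-MTVL cells kept in serum-free medium received 10 nM R5020, a synthetic progestin, for 30 min. In the 0 min group the same cells in the same medium received no hormone. T47D is an established luminal breast cancer line that expresses the progesterone receptor, and MTVL is a derivative with an integrated MMTV promoter reporter. HP1γ was precipitated with 1 monoclonal antibody in 1 library per time, so no difference below has a replicate check or a p-value, and each compares 2 libraries. The depth of these libraries is unknown and no input library was used here.

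HP1γ, the product of CBX3, is 1 of the HP1 proteins, which bind methylated lysine on the tail of histone H3 and are known for compacting heterochromatin. The gamma form is also found in active genes and has been tied to transcript elongation and splicing. LSD1 (KDM1A) is a demethylase that removes methyl groups from the tail of histone H3, and BPTF belongs to NURF, a complex that slides nucleosomes. Progestin-bound progesterone receptor regulates genes of growth and differentiation in breast epithelium.

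The DNA under a few peaks is shown first because the lists are compared below by base composition. Each is the 300-base window of the hg19 (GRCh37) forward strand about the middle of the overlap or of the peak, with C and G in capitals. The first set holds sites with a high score at both times, where the score is the authors' value for a peak, at least 30 in every list. They lie in an intron of VPS8 (chr3:184661823-184662122) and in an exon of MUC4, a membrane mucin (chr3:195497961-195498260).
VPS8 intron, both times: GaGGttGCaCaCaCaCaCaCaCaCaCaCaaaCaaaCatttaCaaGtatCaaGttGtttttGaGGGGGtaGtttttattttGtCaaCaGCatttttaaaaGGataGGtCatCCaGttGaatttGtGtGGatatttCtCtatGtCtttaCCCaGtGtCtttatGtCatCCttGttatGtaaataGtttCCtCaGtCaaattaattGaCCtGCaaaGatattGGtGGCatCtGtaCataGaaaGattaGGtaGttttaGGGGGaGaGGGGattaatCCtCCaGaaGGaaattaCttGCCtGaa
MUC4 exon, both times: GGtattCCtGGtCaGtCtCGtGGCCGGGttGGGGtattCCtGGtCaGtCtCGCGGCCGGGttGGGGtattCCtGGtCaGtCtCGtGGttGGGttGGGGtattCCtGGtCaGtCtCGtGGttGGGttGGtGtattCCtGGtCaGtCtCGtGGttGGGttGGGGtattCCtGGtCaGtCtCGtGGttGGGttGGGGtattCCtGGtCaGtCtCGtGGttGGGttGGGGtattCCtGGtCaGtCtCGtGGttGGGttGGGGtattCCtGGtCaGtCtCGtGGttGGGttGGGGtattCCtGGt
The second set holds 2 of the highest peaks found at 30 min and not at 0 min, between genes 45.4 kb from SYT15 (chr10:46913088-46913387) and in an intron of the ATPase gene ATP13A4 (chr3:193291358-193291657).
Near SYT15, 30 min only: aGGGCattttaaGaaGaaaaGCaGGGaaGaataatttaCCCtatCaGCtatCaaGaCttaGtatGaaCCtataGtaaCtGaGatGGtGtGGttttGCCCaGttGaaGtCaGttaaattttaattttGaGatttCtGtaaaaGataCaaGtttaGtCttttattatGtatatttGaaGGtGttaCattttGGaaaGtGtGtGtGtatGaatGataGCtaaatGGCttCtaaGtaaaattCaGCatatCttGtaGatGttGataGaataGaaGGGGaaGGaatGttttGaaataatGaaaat
ATP13A4 intron, 30 min only: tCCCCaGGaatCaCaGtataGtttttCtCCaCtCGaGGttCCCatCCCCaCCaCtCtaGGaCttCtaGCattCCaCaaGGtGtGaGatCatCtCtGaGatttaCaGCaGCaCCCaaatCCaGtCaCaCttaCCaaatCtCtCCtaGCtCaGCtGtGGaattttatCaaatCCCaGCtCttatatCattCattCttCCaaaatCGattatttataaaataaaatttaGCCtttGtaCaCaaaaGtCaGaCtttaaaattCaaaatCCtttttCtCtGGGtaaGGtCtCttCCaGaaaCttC
The third set holds the 2 highest peaks found at 0 min and not at 30 min, in an intron of FNDC3B (chr3:172004456-172004755) and between genes 110 kb from FGF12 (chr3:191751279-191751578).
FNDC3B intron, 0 min only: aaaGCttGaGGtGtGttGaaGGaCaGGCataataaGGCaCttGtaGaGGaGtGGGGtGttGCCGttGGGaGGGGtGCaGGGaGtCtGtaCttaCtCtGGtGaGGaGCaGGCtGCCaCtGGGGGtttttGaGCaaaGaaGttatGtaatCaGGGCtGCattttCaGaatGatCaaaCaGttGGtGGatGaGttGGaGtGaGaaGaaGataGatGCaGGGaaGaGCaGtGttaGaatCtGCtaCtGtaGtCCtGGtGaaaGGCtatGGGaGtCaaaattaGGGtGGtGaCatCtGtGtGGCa
Near FGF12, 0 min only: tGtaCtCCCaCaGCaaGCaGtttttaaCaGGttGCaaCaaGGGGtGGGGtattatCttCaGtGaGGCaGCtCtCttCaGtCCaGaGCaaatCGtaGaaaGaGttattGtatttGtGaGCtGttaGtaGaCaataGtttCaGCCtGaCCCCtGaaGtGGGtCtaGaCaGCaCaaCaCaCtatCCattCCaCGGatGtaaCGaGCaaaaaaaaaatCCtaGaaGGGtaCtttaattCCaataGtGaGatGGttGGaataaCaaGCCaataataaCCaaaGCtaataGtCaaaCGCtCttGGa
The windows at both times were 36.7% and 57.3% GC, those at 30 min only 31.0% and 39.0%, and those at 0 min only 48.3% and 41.7%. Windows not printed were 42% GC at the second highest 30 min only peak (chr17:60353926-60354225) and 40% at a 0 min only peak in PEX5L (chr3:179639230-179639529), so single windows of the sets overlap in GC. The MUC4 window is a tandem repeat of near-identical copies, so the place of its reads within the gene is uncertain.

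HP1γ had 8009 fewer peaks at 30 min than at 0 min, a ratio of 0.749. The peaks covered 11.1 Mb at 30 min and 16.4 Mb at 0 min, or 0.393% and 0.580% of the genome. A typical peak was a little narrower at 30 min, with a median width of 442 bp against 468 bp. The deposited score had a median of 37.3 in the 30 min list and 35.6 in the 0 min list, and 17 and 48 peaks had at least 100. Its definition is not given in the sources used here, so these values describe each list. Where the same score limit is set on both lists below, it may not mean the same in each.

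A change of base composition accompanied the smaller number. The median GC content of a peak was 38.9% at 30 min and 42.1% at 0 min, a difference of -3.12 percentage points, whereas the DNA 10 kb to either side had medians of 39.7% and 40.4%. Peaks below 35% GC numbered 6123 at 30 min and 2155 at 0 min, 2.84 times as many, and made up 25.7% and 6.77% of their lists. Peaks between 35% and 40% GC numbered 7118 at 30 min and 9232 at 0 min, a ratio of 0.771. Above 40% GC the ratio was nearly flat, at 0.524, 0.518 and 0.498 in successive steps of 5% and 0.514 at 55% or more. In the most AT-rich steps the excess was larger, with 482 peaks at 30 min and 43 at 0 min between 28% and 30% GC. The 30 min list thus held more AT-rich peaks in absolute number and about 50% as many peaks wherever GC was above 40%. The part of the libraries in this was not tested.

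**Figure D1:**
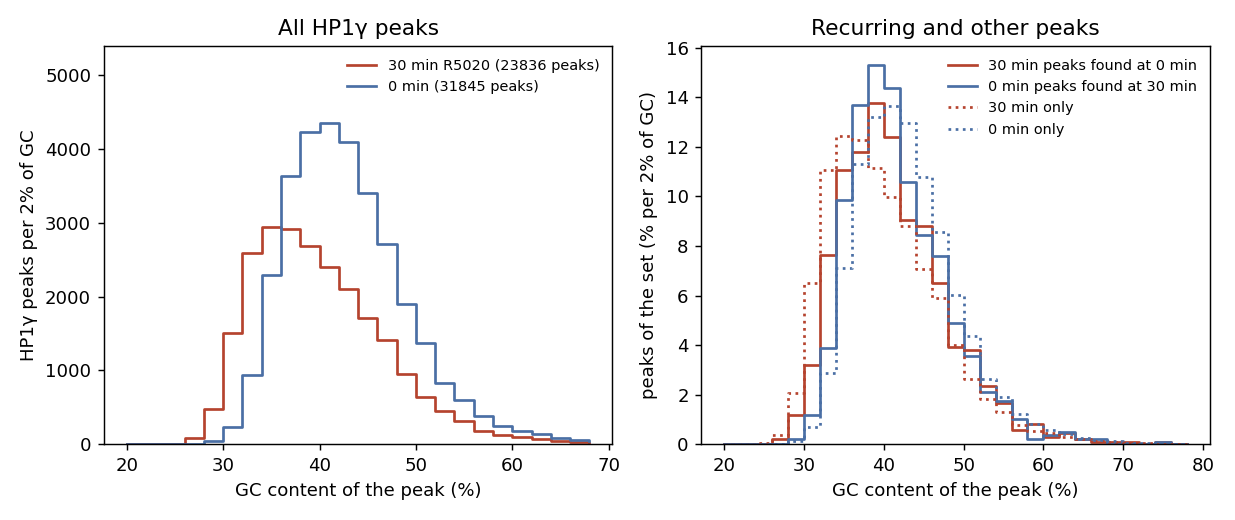
Number of HP1γ peaks at 30 min (red) and 0 min (blue) by GC content of the peak in steps of 2% (left), and the percentage of each set by GC for peaks found at both times (solid) and at 1 time (dotted) (right). The 30 min curve lies above the 0 min curve below 36% GC and under it above. The solid curves of sites found at both times lie closer together than the dotted ones but also differ at the AT-rich end. Of these sites, 17.9% of the 30 min peaks and 9.77% of the 0 min peaks were below 35% GC.

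The GC difference was not carried by weak peaks or by 1 chromosome. It was -3.74 percentage points among peaks with a score of at least 50, -3.10 with the 0 min list cut to its 23836 highest peaks, -3.18 without chromosome 3 and -3.02 among peaks between genes. The median was lower at 30 min on all 23 chromosomes, by 0.354 to 4.42 percentage points. AT-rich peaks were more numerous at 30 min on 22 of the 23 chromosomes. The exception was chromosome 19 with 4 at 30 min and 6 at 0 min. On chromosome 2 there were 103 AT-rich peaks at 30 min and 14 at 0 min, and on chromosome 3 there were 1168 and 547. Of the AT-rich peaks, 61.4% at 30 min and 60.9% at 0 min lay between genes. They were not rich in long single-base stretches: 3.07% at 30 min and 3.25% at 0 min held at least 15 consecutive A or T, against 6.09% and 5.08% of the other peaks.

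Their neighbourhoods were less distinct than the peaks themselves. The DNA beside AT-rich peaks had a median GC of 37.6% at 30 min and 37.2% at 0 min, and that beside the other peaks 40.5% and 40.7%. A peak at 30 min differed from its own flanks by a median of -0.454 percentage points of GC, and a peak at 0 min by 1.69. Windows of 1 Mb showed the same slope on a coarser scale, with 4543 peaks at 30 min and 4929 at 0 min in the 558 AT-richest windows, a ratio of 0.922, and 3756 and 6169 in the 558 GC-richest, a ratio of 0.609. LSD1 took another course. Its median GC was 38.1% at 30 min and 37.6% at 0 min, its peaks below 35% GC made up 33.4% and 25.3% of its lists, and those at 50% or more made up 8.68% and 1.20%, where HP1γ had 8.44% and 12.5%. The HP1γ and LSD1 lists were thus nearer to each other in base composition at 30 min than at 0 min. The base composition of both antibodies' lists moved with time, and the part of the libraries themselves in the HP1γ difference was not tested.

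Few HP1γ sites recurred. In the 30 min list 1372 peaks overlapped a 0 min peak, which is 5.76% (Wilson 95% interval 5.47% to 6.06%), and 1372 of the 0 min peaks overlapped a 30 min peak, which is 4.31% (4.09% to 4.54%). These intervals, and the others below, cover the number of peaks only. The remaining 22464 peaks were found at 30 min only and 30473 at 0 min only. The overlapping peaks formed 1390 pairs, which shared a median of 322.5 bp and whose midpoints lay a median of 212 bp apart. Only 63 pairs had a score of at least 50 at both times. The shares were 2.99% at 30 min and 2.24% at 0 min where 50% of both peaks had to be shared, and 11.2% and 8.51% where a gap of up to 1 kb was allowed.

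A site with a high score was found at both times more often than a weak one. Among peaks with a score of 30 to 35, 4.96% of those at 30 min and 3.16% of those at 0 min overlapped a peak of the other time. At a score of 80 or more these shares were 25.3% at 30 min (25 of 99, 17.7% to 34.6%) and 20% at 0 min (40 of 200, 15% to 26.1%). Sharing with LSD1 of the same time climbed alike, to 24.2% at 30 min and 27.0% at 0 min among peaks of 80 or more, beside 2.54% and 6.20% among the weakest. Of the 30 min sites, those also present at 0 min overlapped an LSD1 peak of 30 min in 9.11% of cases, and those at 30 min only in 2.71%. Of the 0 min sites, those also present at 30 min overlapped an LSD1 peak of 0 min in 19.3% of cases, and those at 0 min only in 7.31%. Sites that recurred in time were therefore also more often shared with a different antibody. Peaks with a score of 50 or more had a median width of 542 bp at 30 min and 672 bp at 0 min. All peaks had 442 bp and 468 bp, and recurring peaks 461 bp and 535.5 bp. A wider peak meets another more easily where 1 bp is enough. The parts of width, of peak density and of signal common to all libraries were not tested.

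**Figure D2:**
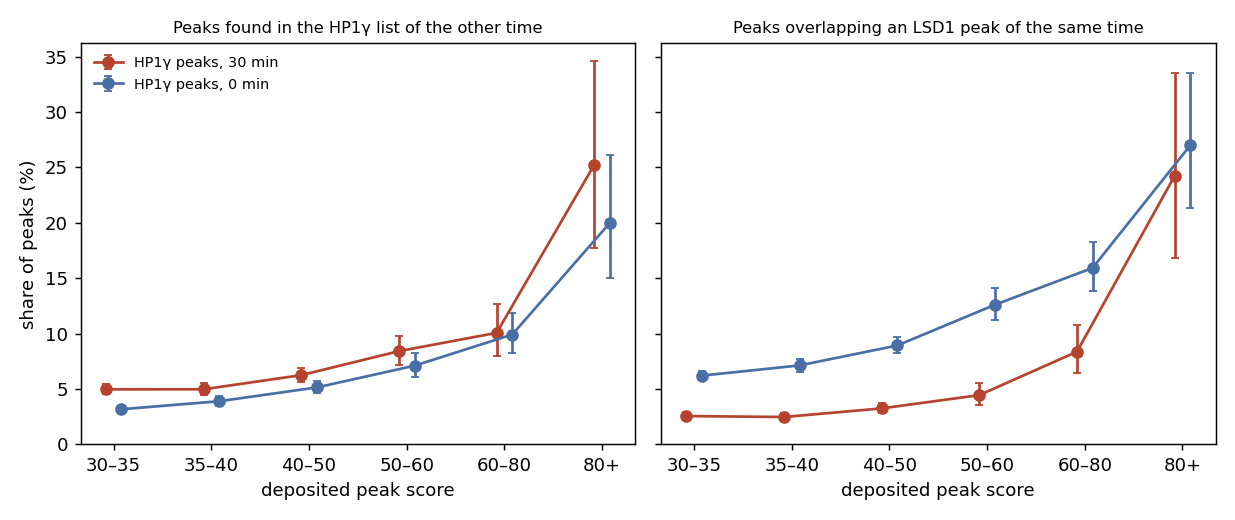
Share of HP1γ peaks at 30 min (red) and 0 min (blue) by deposited score that overlapped an HP1γ peak of the other time (left) or an LSD1 peak of the same time (right), with Wilson 95% intervals over peaks. Both shares are highest at scores of 80 or more, where they lie between 20% and 27.0%.

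Peaks of the 2 times were denser near each other than farther away. Around a 30 min peak, 0 min peaks had a density of 6.84 per 100 kb within 250 bp, 4.51 from 250 to 500 bp and 2.93 from 1 to 2 kb, against 2.73 at 100 to 200 kb. The density at the peak was 2.51 times that of the surroundings, and LSD1 peaks of 30 min around the same peaks reached 2.31 times. In both cases little of the excess was left beyond 1 kb. On a coarser scale, the peak numbers of both times over 2790 windows of 1 Mb had a Spearman correlation of 0.862, a description of windows that share the density of their chromosome. Within chromosomes it ran from -0.03 on chromosome 22 to 0.911 on chromosome 3, with a median of 0.699.

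**Figure D3:**
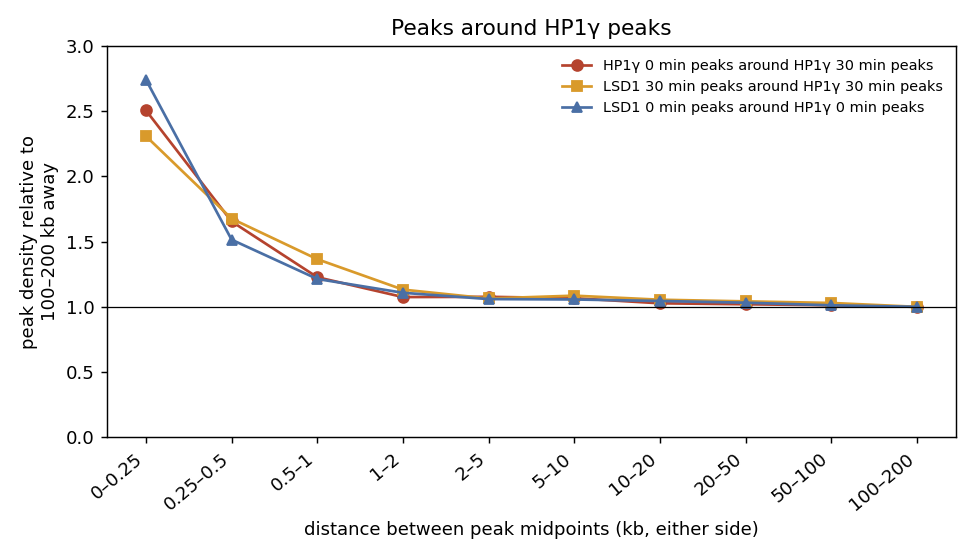
Density of peaks by distance from the midpoint of HP1γ peaks, relative to the density 100 to 200 kb away. HP1γ at 0 min around HP1γ at 30 min (red circles) and LSD1 around HP1γ of the same time (squares for 30 min, triangles for 0 min) all start between 2.31 and 2.74 and come close to 1 from 1 kb on.

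Of the 10 sites with the highest score at both times, 6 lay in genes or at a gene start and the others between genes. An intron of VPS8, which encodes a subunit of an endosomal tethering complex, had a score of 92.97 at 30 min and 87.37 at 0 min. The MUC4 exon had 70.01 at 30 min and 117.96 at 0 min. An intron of EHF, an epithelial transcription factor of the ETS family, had 72.08 at 30 min and 67.19 at 0 min (chr11:34654842-34655552 at 30 min, 41.9% GC). The start of the zinc finger gene ZNF740 had 66.27 at 30 min and 67.00 at 0 min (chr12:53575353-53576218 at 30 min). An intron of NAALADL2 had 68.58 at 30 min and 66.26 at 0 min. The score is not a measure of binding that can be set between libraries, so these values rank sites within each list.

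At 39 sites HP1γ and LSD1 had a peak at both times, and 22 of these lay on chromosome 3. The highest HP1γ peak at 30 min was among them (chr10:47394813-47395777), between genes and 172 kb from AGAP10, with HP1γ scores of 153 at 30 min and 52.8 at 0 min and LSD1 scores of 32.0 and 31.6. It was 30.5% GC. Others were an intron of KIAA0226, with HP1γ scores of 103 at 30 min and 55 at 0 min, an intron of NLGN1 with 72.3 and 39.0, and a site 36.7 kb from NBPF15 on chromosome 1 with 93.6 and 48.6. AGAP10 and NBPF15 belong to families of near-identical copies, so reads there may stem from other copies.

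Peaks found at 1 time only reached high scores as well. Below the 5 highest at 30 min came introns of NR6A1, an orphan nuclear receptor (109.5 at 30 min), and of NLGN1 (105.26), and an exon of CCDC6 (104.82). Among 0 min peaks of the same ranks were introns of SLC36A3 (122.62) and of EHHADH, a peroxisomal enzyme of fatty acid oxidation (122.1), and the start of TRIM59 (118.99), whose peak was 65.2% GC. The NLGN1 peak was 32.6% GC. These sites were chosen for their scores and their absence at the other time, so the values are a description.

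HP1γ peaks were spread unevenly over the chromosomes at both times, and less unevenly at 30 min. Peaks per Mb differed 21.6-fold between the densest and the sparsest chromosome at 30 min and 40-fold at 0 min. Chromosome 3 was the densest, with 3747 peaks at 30 min and 4800 at 0 min. Peaks were fewer at 30 min on 18 of 23 chromosomes, down to a ratio of 0.636 on chromosome 17 with 1020 at 30 min and 1604 at 0 min. They were more numerous on the other 5, with 507 and 354 on chromosome 2, 424 and 351 on chromosome 4, 119 and 107 on chromosome 18, 80 and 70 on chromosome 22, and 136 and 94 on chromosome X. All of these had fewer than 2 peaks per Mb at 0 min. With both lists at equal length, 12 of 23 chromosomes had more peaks at 30 min. LSD1 had more peaks at 30 min on 7 chromosomes, among them these 5, and the part of a shared background in the sparse chromosomes was not tested.

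**Figure D4:**
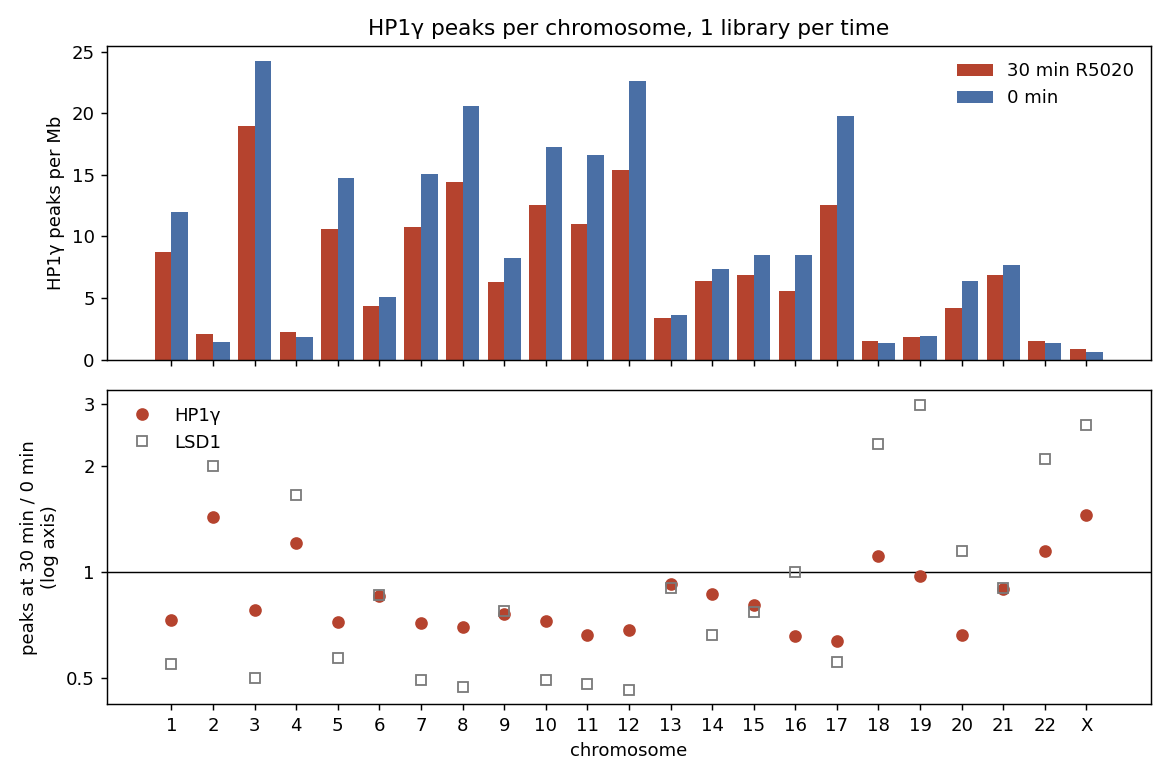
HP1γ peaks per Mb by chromosome at 30 min (red) and 0 min (blue), 1 library each (top), and the ratio of 30 min to 0 min peak numbers for HP1γ (circles) and LSD1 (squares) on a log axis (bottom). The HP1γ ratio lies between 0.636 and 1.45, with values above 1 on chromosomes 2, 4, 18, 22 and X.

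The far end of chromosome 3 stood out. From 150 Mb to its end it held 2447 peaks at 30 min and 3189 at 0 min, 51.0 and 66.4 per Mb, against 8.67 and 10.7 per Mb on the rest of the chromosome. There 18.6% of the 30 min peaks and 14.2% of the 0 min peaks overlapped a peak of the other time, and on the rest of chromosome 3 it was 2.92% and 2.36%. This stretch held 33.1% of all recurring 30 min sites. Where peaks are denser, more of them overlap by position alone, and the part of density in these shares was not tested. The 150 Mb boundary was set after the values were seen. The densest 1 Mb window at 30 min lay at chr3:177000001-178000000 with 95 peaks, against 104 at 0 min. The LSD1 lists were also densest on chromosome 3, with 15.4 peaks per Mb at 30 min and 30.7 at 0 min, and the number of copies of this stretch in the cells was not measured here.

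Gene bodies, which make up 39.2% of the genome, held 40.2% of the peaks at 30 min (39.5% to 40.8%) and 41.0% at 0 min (40.4% to 41.5%), so HP1γ peaks were spread over genes and the space between them nearly in proportion to length. At a score of at least 50 the order of the times turned, with 40.6% at 30 min and 40.4% at 0 min. Introns held 34.8% of peaks at 30 min and 34.7% at 0 min, and exons away from gene starts 4.11% and 4.59%. Gene starts, within 1 kb of the annotated start, held 474 peaks at 30 min, 1.99% (1.82% to 2.17%), and 815 at 0 min, 2.56% (2.39% to 2.74%), where 1.34% of the genome lies. The intervals of the 2 times do not overlap at gene starts, but they cover the number of peaks only. With 1 library per time they do not measure how libraries differ. Few AT-rich peaks lay at gene starts. Below 35% GC they were 42 of 6123 at 30 min and 11 of 2155 at 0 min. At 35% GC or more they were 432 of 17713 at 30 min and 804 of 29690 at 0 min. The part of base composition in the gene start shares was not tested.

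Gene starts with a peak belonged to 497 genes at 30 min and 858 at 0 min, and 63 genes had one at both times, in 41 of them with peaks that overlapped. Besides ZNF740 these included FKBPL with scores of 49.8 at 30 min and 49.2 at 0 min, COMMD9 with 48.1 and 52.9, and CDK5R1, an activator of the neuronal kinase CDK5, with 51.6 and 43.4. TDG, a DNA glycosylase of active demethylation, and C12orf73 share a start region in opposite directions. A peak of 52.9 at 30 min lay over both starts. The peak of 46.3 at 0 min lay over that of C12orf73 and ended within 1 kb of that of TDG. The start of KCNMB3, a potassium channel subunit, had 48.7 at 30 min and 112 at 0 min.

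Over 20318 genes of the gene table, 1661 (8.18%) had a peak at 30 min and none at 0 min, 2291 (11.3%) at 0 min and none at 30 min, and 2594 (12.8%) at both times. In 2208 of the genes with peaks at both times no peak was the same site. With lists of equal length these numbered 1948 at 30 min only and 1800 at 0 min only, so the order of the 2 classes followed the lengths of the lists. Gene length went with the class: of 231 genes of 500 kb or more, 164 had peaks at both times and 25 had none, whereas of 6332 genes under 10 kb only 39 had peaks at both times. Over the length classes, peaks per Mb of gene ran from 7.62 to 9.02 at 30 min and from 11.2 to 13.9 at 0 min. The longest genes had 8.80 at 30 min and 11.2 at 0 min. The shortest had 8.33 at 30 min and 13.9 at 0 min, the highest value of that time.

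The genes with the most peaks were long, and 6 of the 10 lie on chromosome 3. NLGN1, a synaptic adhesion gene of 888 kb (chr3:173116238-174004434), had 76 peaks at 30 min and 86 at 0 min, of which 18 recurred. MECOM, which encodes a zinc finger regulator of stem cells and leukaemia, had 54 at both times with 7 recurring. FGF12, a regulator of sodium channels, had 46 at 30 min and 56 at 0 min with 14 and 13 recurring. KCNMB2, a regulatory subunit of calcium-activated potassium channels, had 43 at 30 min and 63 at 0 min with 11 recurring. FNDC3B had 32 at 30 min and 38 at 0 min. CADM2, a cell adhesion gene, was the only 1 of the 10 with more peaks at 30 min, 41 against 34, and it is 34.0% GC. Off chromosome 3, AUTS2, a neurodevelopmental gene (chr7:69063905-70257489), had 16 at 30 min and 51 at 0 min, KCNMA1, the channel that KCNMB2 regulates, had 27 and 40, CTNNA3 had 37 and 49, and PDE4D, a cyclic AMP phosphodiesterase, had 37 and 38. The next genes by recurring sites, TNIK, PEX5L, KCNAB1 and NAALADL2, are also on chromosome 3.

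Among 491 genes with at least 10 peaks over both lists, 27 (5.5%) had at least 2-fold more peaks at 30 min and 149 (30.3%) at least 2-fold fewer. Genes were ranked by the ratio with 1 peak added to each number. SMYD3, a lysine methyltransferase, had 11 peaks at 30 min and 2 at 0 min (chr1:246215859-246670446). TRPM6, a magnesium channel, had 10 and 2, and APP, the amyloid precursor gene, had 8 and 2. SVEP1 had 13 at 30 min and 5 at 0 min. UBE2W and a gene without a symbol (ENSG00000258677) overlap and share peaks, with 9 and 12 at 30 min against 3 and 5 at 0 min. None of the 10 genes highest by this ratio had more than 1 recurring site, and their GC content ran from 33.2% in BRINP3 to 40.1% in ZNF462.

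At the other end, ARHGEF26 (chr3:153838792-153975616) had no peak at 30 min and 10 at 0 min. C16orf95 had 1 at 30 min and 14 at 0 min, and FLI1, an ETS transcription factor of blood and endothelium, had 3 and 20. SEMA6D, an axon guidance gene, had 1 at 30 min and 11 at 0 min, MUSK, the receptor kinase of the neuromuscular junction, had 1 and 10, and DST, a cytoskeletal linker, had 1 and 9. FCGR2B had 1 at 30 min and 11 at 0 min, and lies among near-identical copies, which makes its peaks uncertain. The GC content of these 10 genes ran from 36.4% in MUSK to 47.8% in C16orf95, so it overlapped that of the genes with more peaks at 30 min. They were chosen for these counts, which are therefore a description.

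**Figure D5:**
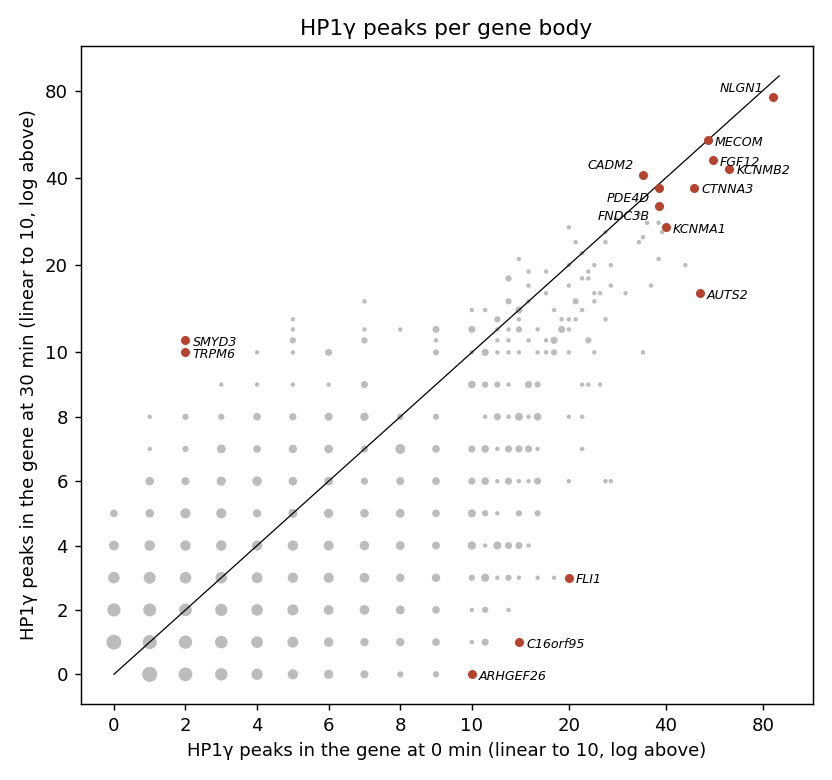
HP1γ peaks in each gene body at 30 min (vertical) and 0 min (horizontal), both axes linear to 10 and logarithmic above. Larger points stand for more genes with the same pair of numbers, named genes are red and the line marks equal numbers. AUTS2 and FLI1 lie far below the line, and SMYD3 and TRPM6 above it.

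Known progestin response genes had fewer peaks at 30 min than at 0 min. Of 37 gene records on the list (AREG has 2), 1 had a peak at 30 min only, 6 at 0 min only and 4 at both times, with 9 distinct peaks at 30 min and 27 at 0 min, a ratio of 0.333 beside 0.734 for all genes. Of the records, 2.70% had a peak at 30 min only, 16.2% at 0 min only and 10.8% at both times, beside 8.18%, 11.3% and 12.8% of all genes. The other 26 records had no peak within the gene, and neither had 67.8% of all genes. Per Mb of gene the list had 5.78 peaks at 30 min and 17.3 at 0 min, beside 8.58 and 11.7 for all genes. EGFR, the epidermal growth factor receptor, had 2 peaks at 30 min and 7 at 0 min. PRLR, the prolactin receptor, had 3 and 6, and TIPARP, an ADP-ribosyltransferase, had 2 and 3 with 1 recurring. ZBTB16, a transcription factor gene induced by progestins, had none at 30 min and 3 at 0 min, BCL6 and STAT5B none and 2 each. The start of MUC1 had a peak at both times. With so few peaks, EGFR and PRLR make up 13 of the 27 peaks at 0 min. The median GC of the listed genes was 48.8%, beside 45.5% for all genes. The part of base composition in the ratio of the list was not tested.

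The luminal breast genes, which mark the cell type of the line, had 30 peaks at 30 min and 34 at 0 min in 20 genes. Of these, 5 genes (25%) had peaks at 30 min only, 2 (10%) at 0 min only and 3 (15%) at both times, beside 8.18%, 11.3% and 12.8% of all genes, and the peaks per Mb were 23.4 at 30 min and 26.5 at 0 min. TRPS1, a GATA-type repressor, had 17 at 30 min and 15 at 0 min, and GRHL2, an epithelial transcription factor, had 6 and 13. KRT8, a luminal keratin, had none at 30 min and 4 at 0 min, ERBB3 had 2 and none, and GATA3 and PGR, the progesterone receptor gene, had 1 each at 30 min and none at 0 min. Basal and mesenchymal genes had 31 peaks at 30 min and 56 at 0 min in 20 genes, of which none had peaks at 30 min only, 4 (20%) at 0 min only and 6 (30%) at both times, or 18.4 peaks per Mb at 30 min and 33.2 at 0 min. TP63, the basal transcription factor, had 16 at 30 min and 25 at 0 min, with 3 recurring, and the starts of SNAI2 and KRT14 had a peak at 0 min and not at 30 min. TP63 and MME lie on chromosome 3.

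Genes of HP1 and LSD1 partners had 13 peaks at 30 min and 12 at 0 min in 23 genes, with 4 (17.4%) at 30 min only, 1 (4.35%) at 0 min only and 3 (13.0%) at both times, beside 8.18%, 11.3% and 12.8% of all genes. The ratio of peak numbers was 1.08, beside 0.734 for all genes. PHF21A, the LSD1 complex subunit that reads unmethylated histone H3, had 4 at 30 min and 7 at 0 min, EHMT1, a histone H3 methyltransferase, 3 and 2, CBX5, which encodes HP1α, 1 and 2, and RCOR3 2 and none. Poly-ADP-ribose and NAD enzymes had 8 peaks at 30 min and 22 at 0 min in 20 genes, with 1 (5%) at 30 min only, 4 (20%) at 0 min only and 5 (25%) at both times and a ratio of 0.364. TNKS2, a tankyrase, had none at 30 min and 5 at 0 min, PARP1 had 1 and 4, NMNAT2, an NAD synthase, 1 and 4, and PARG, which degrades poly-ADP-ribose, 2 and 1. The starts of NMNAT1 and TNKS had a peak at 0 min and not at 30 min. None of these 2 lists' peaks recurred.

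Zinc finger genes of chromosome 19, a known domain of HP1 and H3 methylation, had 19 distinct peaks at 30 min and 23 at 0 min in 245 genes, with none recurring. That is 3.09 and 3.74 per Mb of gene, below the 8.58 and 11.7 per Mb of all genes. At 30 min only there were 20 genes (8.16%), at 0 min only 18 (7.35%) and at both times 2 (0.816%). Over all genes these shares were 8.18%, 11.3% and 12.8%. The 253 zinc finger genes elsewhere had 93 peaks at 30 min and 145 at 0 min, 8.59 and 13.4 per Mb. Of these genes 17 (6.72%) had peaks at 30 min only, 42 (16.6%) at 0 min only and 40 (15.8%) at both times. Chromosome 19 as a whole had 1.86 peaks per Mb at 30 min and 1.91 at 0 min.

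The other families differed in the ratio of peak numbers, which was 0.734 over all genes, where 8.18% had peaks at 30 min only, 11.3% at 0 min only and 12.8% at both times. It was 0.673 in potassium channels, 0.566 in collagens, 0.684 in clustered protocadherins, 0.462 in ribosomal protein genes and 0.571 in HOX genes, but 1.33 in replication histones and 1.88 in olfactory receptors, on few peaks in most of these. Potassium channel genes had 167 peaks at 30 min and 248 at 0 min in 92 genes, with 7 genes at 30 min only, 10 at 0 min only and 22 at both times, and KCNMB2, KCNMA1 and KCNAB1 gave 91 and 141 of these peaks. Collagen genes had 30 and 53 in 43 genes (3 at 30 min only, 9 at 0 min only, 9 at both times), with COL22A1 at 4 and 8 and COL5A1 at 3 and 7. The starts of COL1A1 and COL2A1, which encode fibrillar collagens of bone and cartilage, had a peak at 0 min and not at 30 min. The clustered protocadherins overlap one another, and their 13 distinct peaks at 30 min and 19 at 0 min put 33 of 52 genes at both times, 4 at 30 min only and 6 at 0 min only. Ribosomal protein genes had 6 and 13 peaks in 83 genes (2 at 30 min only, 7 at 0 min only, 2 at both times), HOX genes 4 and 7 in 39 genes (2, 2 and 3), and replication histones 4 and 3 in 57 genes (3, 3 and 1). Olfactory receptors, silent in most tissues, had 15 peaks at 30 min and 8 at 0 min in 381 genes, with 8 at 30 min only, 4 at 0 min only and 3 at both times. Many olfactory receptor and histone genes have close copies, which makes single peaks there uncertain.

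Other readouts of the series touched few HP1γ sites. LSD1 peaks of the same time overlapped 734 HP1γ peaks at 30 min, 3.08% (2.87% to 3.31%), and 2492 at 0 min, 7.83% (7.54% to 8.13%). LSD1 covered 0.333% of the genome at 30 min and 0.724% at 0 min. BPTF peaks that the authors list as recruited by hormone overlapped 0.222% of HP1γ peaks at 30 min and 0.289% at 0 min, and those listed as displaced 0.583% and 0.732%. Of 1848 recruited BPTF peaks, 53 (2.87%) had an HP1γ peak at 30 min and 93 (5.03%) at 0 min. Of 5546 displaced BPTF peaks, 138 (2.49%) had one at 30 min and 229 (4.13%) at 0 min. Both BPTF sets thus met more HP1γ peaks at 0 min, the time with the longer list.

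Histone H2A in genes differed little with the HP1γ class once GC was held alike. The log2 ratio of H2A RPKM at 30 min to 0 min, with 0.05 added, had a median of -0.05 in genes with an HP1γ peak at 30 min only, -0.13 at 0 min only, -0.01 at both times and -0.18 without a peak. The median GC of these genes was 42.0%, 44.2%, 40.6% and 48.0%. Among genes of 35% to 40% GC the 4 medians were 0.13, 0.11, 0.12 and 0.12, and among those of 45% to 50% GC they were -0.20, -0.21, -0.20 and -0.21. H2A ratios therefore tracked gene GC, and within a band of GC the classes differed by far less than the spread between genes, whose middle 50% in the lower band ran from 0.06 to 0.20 for 30 min only.

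Hormone receptor motifs were not concentrated under the peaks. The core of the progesterone and glucocorticoid receptor element, ACANNNTGT, reads the same on both strands in its fixed bases. It occurred in 9.34% of 300-base windows at 30 min peaks and 8.62% at 0 min peaks, against 9.11% and 9.01% of windows 10 kb to either side. The core is a short word that is also frequent in the flanks, so its share cannot show how many windows hold a full element. The forkhead word TGTTTAC, searched on both strands, occurred in 5.25% at 30 min and 4.27% at 0 min, against 4.83% and 4.68% in the flanks. Among recurring sites the receptor core was in 8.89% at 30 min (7.5% to 10.5%), against 9.29% of their flanks (8.26% to 10.4%), and in 7% at 0 min (5.76% to 8.47%), against 9.62% (8.57% to 10.8%), so at 0 min it was less frequent in recurring sites than in their flanks beyond both intervals. Of the windows printed above, the ATP13A4 intron held 1 receptor core. For the forkhead word at all 0 min peaks the intervals did not overlap either, at 4.06% to 4.50% in peaks and 4.52% to 4.85% in flanks. Both words are mostly A or T in their fixed bases, and the base composition of the lists differed as given above. Recurring 0 min peaks differed from their flanks by a median of 1.17 percentage points of GC.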

How the data were processed

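HP1γ and LSD1 peak lists are as the authors deposited them, with positions and 1 score for each peak, 1 list per library. The lowest score is 30, and the caller's settings, control and definition of the score are not given in the sources used here. Bowtie 1.0.0 and HOMER 4.7.2 and the build hg19 (GRCh37) are listed per the submitters' processing notes. H2A is given as RPKM per protein-coding gene, counted by the authors with HOMER on both strands of GENCODE version 18 genes, per the file headers. BPTF peaks are positions without a score, as deposited. Libraries had 1 sample per antibody and time, and their depth is unknown.

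Peaks were matched by at least 1 bp and assigned to the 20318 genes of the table, whose symbols were completed for 1842 genes from GENCODE version 44 lifted to GRCh37. GC content and sequences were read from GRCh37, and flanks were taken 10 kb to either side. Genes with a mean H2A RPKM under 0.1 were left out of the H2A medians. Distinct peaks were counted once per list of genes. Named genes were the 10 with most peaks, the 10 highest and 10 lowest by ratio among genes with at least 10 peaks, the 10 with most recurring peaks, and for each list members with a peak at the start and the 4 with most peaks, of which a selection is printed. Named sites were the 10 highest pairs and the 10 highest peaks of 1 time only, of which a selection is printed and 1 pair is not reported here. The members and gene lists were chosen with earlier results of these data known, and the comparison of GC content was chosen after its values were seen. Overlap and interval code was tested on simulated data. Python 3.11.15, pandas 2.3.3, numpy 2.4.6 and pysam 0.24.0 were used.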

Additional observations from a re-analysis of the deposited data

How the results depend on the processing

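No paired analysis was possible because each antibody and time had 1 library, and for the same reason no library could be left out. Of 44 alternatives, 18 stayed within 1.5 times a count or within the interval of the value, 26 moved and 0 reversed, and the cause was not tested. Each value was labelled by itself, so a turned order of the 2 times, as given below, does not count as reversed. The ratio of peak numbers, 30 over 0 min, was 0.733 at a score of at least 50 and 0.354 at 100. These limits may not mean the same in both lists. The share of 30 min peaks found at 0 min was 2.99% where 50% of both peaks had to be shared, 11.2% with a gap of up to 1 kb, 2.56% at a score of at least 50, 0% at 100, 4.80% with lists of equal length and 4.38% without chromosome 3. The share of 0 min peaks found at 30 min was 2.24%, 8.51%, 1.88%, 0%, 4.77% and 3.26% under the same alternatives. At a score of at least 50, genes with a peak at 30 min only, at 0 min only and at both times numbered 503, 683 and 259. The share of peaks in gene bodies was then 40.6% at 30 min and 40.4% at 0 min, so their order turned, that of peaks at gene starts was 2.32% at 30 min and 3.64% at 0 min, and 6.98% and 8.03% within 5 kb of the start. The share overlapping LSD1 of the same time, where 50% of both peaks had to be shared, was 1.54% at 30 min and 4.32% at 0 min, and at a score of at least 50 it was 1.42% and 5.04%. The score filter and the lists of equal length keep fewer peaks by construction. With lists of equal length, genes at 30 min only numbered 1948 and those at 0 min only 1800, so their order turned. The GC difference, added after the values were seen, stayed between -3.74 and -3.02 percentage points.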
